A study of Mus musculus with 4 samples.

Results

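The snoRNA host genes described here are 9 noncoding genes, Gas5, Snhg1, Snhg3, Snhg5, Snhg6, Snhg8, Snhg12, Zfas1 and Epb41l4aos, taken by their symbols from the 55573 genes of the deposited table. Each carries at least 1 annotated small nucleolar RNA (snoRNA) within its span, on its own strand, in GENCODE M21. RNA was sequenced in 4 libraries of SmoWT cells, a mouse medulloblastoma of the Sonic Hedgehog subtype with the genotype Ptch1+/-, Trp53-/- on the strain C57BL/6. All libraries carry that genotype, as the cells came from tumours that arose spontaneously in such mice. The cells grew as neurospheres and received either the solvent DMSO (2 libraries) or 0.1 µM GDC0449 for 24 h (2 libraries). GDC0449, or vismodegib, inhibits Smoothened, the membrane protein that passes on the Hedgehog signal. The labels do not say whether the 2 libraries of a group came from separate cultures, so the p-values describe no more than the scatter of these libraries, which could be technical.

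A snoRNA host gene is transcribed as a long RNA whose introns hold snoRNAs. After splicing, each snoRNA is trimmed out of its intron and packed with proteins, and the particle then guides the chemical modification or cleavage of ribosomal RNA. Box C/D snoRNAs guide ribose methylation and box H/ACA snoRNAs guide pseudouridylation. The joined exons of several hosts, Gas5 first among them, begin with a pyrimidine tract of the kind that puts ribosomal protein mRNAs under mTORC1 control. They are loaded on ribosomes, and because they hold no long reading frame they are destroyed by nonsense-mediated decay. Gas5 was named for its build-up in growth-arrested cells.

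Sequences around the annotated start sites are shown because this tract is the feature known for these genes. Each window holds the 20 bases before a RefSeq start site (build GRCm38.p6) and the 20 bases from it onwards, 5′ to 3′ on the transcript strand. Capitals mark a C followed by at least 4 pyrimidines (C or T), the longest such run in the window.
Gas5, chr1:161035146-161035185, plus strand: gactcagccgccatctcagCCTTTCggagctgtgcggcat
Snhg8, chr3:123508317-123508356, minus strand: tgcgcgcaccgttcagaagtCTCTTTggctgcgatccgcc
Snhg12, chr4:132308658-132308697, plus strand: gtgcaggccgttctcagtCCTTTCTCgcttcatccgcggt
Snhg5, chr9:88522878-88522917, minus strand: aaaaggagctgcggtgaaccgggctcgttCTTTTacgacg
Snhg3, chr4:132353667-132353706, minus strand: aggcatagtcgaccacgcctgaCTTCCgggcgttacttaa
Snhg1, chr19:8723467-8723506, plus strand: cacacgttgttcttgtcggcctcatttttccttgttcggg

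The runs of Gas5, Snhg8 and Snhg12 lie at or within 2 bases of the annotated start site. Those of Snhg3 and Snhg5 begin 2 and 9 bases downstream of it. Windows of Snhg1, Zfas1 and another annotated start of Gas5 hold no such run. In all, 5 of 8 start windows of 7 members matched, where 45.9% of the 32851 windows in the RefSeq table did. On the opposite strand 3 of 8 windows matched, against 49.9% of all. The pattern is therefore common around start sites, and a match is a description of letters only. Snhg6 and Epb41l4aos are named without a sequence.

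Reads assigned to genes numbered from 16329721 (DMSO replicate 2) to 20790030 (GDC0449 replicate 1), and 15472 genes passed the expression filter and were tested. The Hedgehog target Gli1 fell from a mean of 272 to 35.7 CPM, the counts scaled for library size, with a log2 fold change of -2.93 and an edgeR adjusted p of 1.67e-36. Of 7 granule progenitor markers, the labelled cell type's lineage, 6 were tested and Barhl1 had 34 reads in all libraries together. At the adjusted p alone 3 rose, Atoh1 (log2 fold change 0.81, also called), Zic1 (0.24) and Zic2 (0.38), and 3 fell, Gli1, Gli2 (-0.58) and Pax6 (-0.19). Summed over its list, astrocyte marker level was 216 and 231 CPM in DMSO and 342 and 336 CPM in GDC0449. Of those 8 markers, 3 were called higher (Slc1a2, Sparcl1 and Aldoc, the last with an adjusted p of 0.0579 without DMSO replicate 2) and Aqp4 had no read. Slc1a2 went from a mean of 78.0 to 177 CPM, while Gja1 fell (-0.22, adjusted p of 0.0319) and Slc1a3 (-0.07), S100b (-0.60) and Gfap (0.69) did not pass. Oligodendrocyte markers summed to 65.8 and 66.2 CPM in DMSO and 83.0 and 84.4 CPM in GDC0449, with Mag and Olig1 at 0 in every library. Microglial markers summed to at most 3.04 CPM and endothelial and fibroblast markers to at most 3.64 CPM in any library. Of 12 tested mitochondrially encoded genes none was called, 6 had an adjusted p below 0.05 with lower values in GDC0449, and their median log2 fold change was -0.22. Over all tested genes 18.1% fell and 18.1% rose at the adjusted p alone, and 8.68% were called higher and 3.85% lower. The part of these shifts in the results on the host genes was not tested.

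Of the 8 host genes that had counts, 6 fell in GDC0449, and Snhg5 and Epb41l4aos did not pass the test. All 8 gave a log2 fold change below 0, and in each of the 8 both GDC0449 libraries lay under both DMSO libraries. Among all 15472 tested genes 32.2% separated in that direction and 33.6% in the other. With an edgeR adjusted p below 0.05 as the only rule, 6 of 8 fell (Gas5, Snhg1, Snhg6, Snhg8, Snhg12 and Zfas1) and 0 rose, where 18.1% of all tested genes fell and 18.1% rose. With the further condition of a fold change over 1.5, the rule meant here by "called", 2 of 8 were called lower (Snhg8 and Snhg12) and 0 higher. The same rule called 3.85% of all tested genes lower and 8.68% higher. The median log2 fold change of the 8 was -0.42, beside 0.0068 over all tested genes. Among the 8937 genes whose mean lay between the lowest and highest of the members (7.36 to 170 CPM), the median was -0.029, 22.6% fell at the adjusted p alone and 3.12% were called lower. In bulk RNA, fewer cells of a type and less RNA per cell cannot be told apart.

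**Figure D1:**
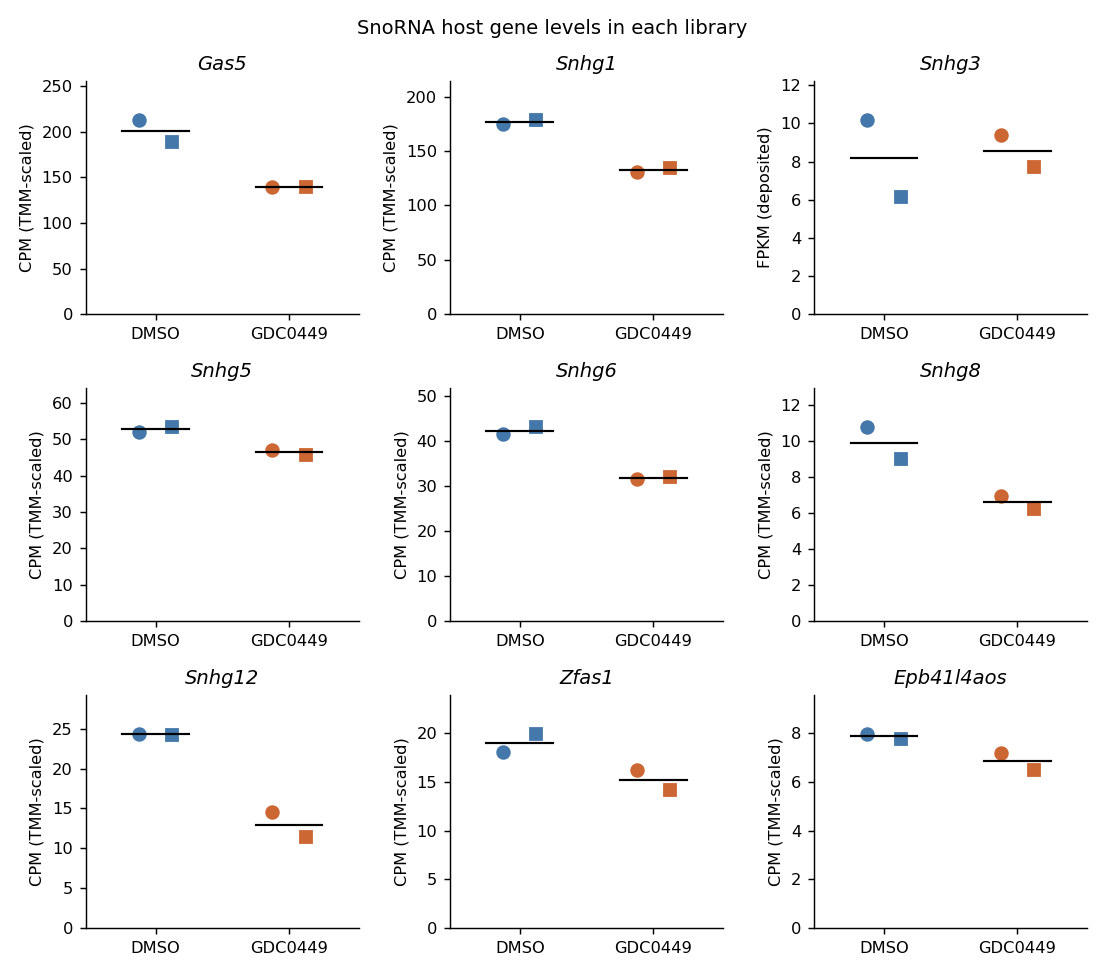
Level of each snoRNA host gene in the 4 libraries: CPM scaled with TMM factors, except Snhg3, which has 0 counts and is shown as deposited FPKM. Circles are replicate 1, squares replicate 2, horizontal lines group means and axes start at 0; the groups separate for all genes but Snhg3, with the lowest ratio of GDC0449 to DMSO, 53.2%, for Snhg12 (24.4 and 24.3 CPM in DMSO, 14.5 and 11.4 CPM in GDC0449).

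Snhg12 (ENSMUSG00000086290, chr4:132308623-132311024, plus strand) had the largest fall of the 8 tested. It hosts Snora16a, Snora44, Snora61 and Snord99. Its counts were 480 and 391 in DMSO and 307 and 240 in GDC0449, or 24.4 and 24.3 CPM against 14.5 and 11.4 CPM. The DMSO pair was nearly equal and the GDC0449 pair spread more, with no overlap. The means were 24.3 ± 0.109 and 13.0 ± 2.25 CPM (SD, n = 2), and GDC0449 stood at 53.2% of DMSO. The log2 fold change was -0.91 ± 0.11 (standard error, edgeR adjusted p of 3.39e-09), and 2.55% of all tested genes had a lower value. Without DMSO replicate 1 the adjusted p was 0.0516 and without DMSO replicate 2 it was 0.0563, at log2 fold changes of -0.91 and -0.92, so the call needed both DMSO libraries.

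Snhg8 (ENSMUSG00000104960, chr3:123507552-123508404, minus strand), which hosts Snora24, was the other gene called. It was among the 2 tested members with the fewest counts, at 212 and 145 in DMSO and 147 and 131 in GDC0449. In CPM these were 10.8 and 8.99 against 6.96 and 6.20, so the groups did not overlap but DMSO replicate 2 lay well below DMSO replicate 1. The log2 fold change was -0.60 (standard error 0.16, edgeR adjusted p of 0.00180), a 1.51-fold difference that barely passes the fold rule. Without DMSO replicate 1 the log2 fold change was -0.45 with an adjusted p of 0.147, without DMSO replicate 2 it was -0.72 with an adjusted p of 0.0627. Leaving out GDC0449 replicate 2 gave -0.52, under the fold rule. The call also ended with upper-quartile scaling (-0.56), with a filter at 5 CPM (-0.57) and with no filter (adjusted p of 0.0934).

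Gas5 (ENSMUSG00000053332, chr1:161034422-161038539, plus strand) was the most abundant host by FPKM. Its RNA is also known as a decoy that binds the glucocorticoid receptor. Counts were 4189 and 3041 in DMSO and 2943 and 2958 in GDC0449. In CPM the DMSO libraries held 213 and 189 and the GDC0449 libraries 139 and 140, so the treated pair was almost equal and both DMSO values stood above it. The means were 201 ± 17.2 and 140 ± 0.381 CPM (SD, n = 2). The log2 fold change of -0.52 (standard error 0.07, edgeR adjusted p of 2.70e-09) is 1.44-fold and stayed short of the fold rule. It passed that rule at -0.62 when DMSO replicate 2 was left out. Neither treated library stood above a DMSO library at 24 h.

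Snhg1 (ENSMUSG00000108414, chr19:8723475-8726443, plus strand), the host of Snord22 and 7 further annotated snoRNAs, held 3442 and 2878 counts in DMSO and 2749 and 2835 in GDC0449. These were 175 and 179 CPM against 130 and 134 CPM, with spreads within groups that were small beside the gap. The log2 fold change was -0.42 (standard error 0.06, edgeR adjusted p of 3.87e-07). Snhg6 (ENSMUSG00000098234, chr1:9941959-9944118, minus strand), the host of Snord87, was at 41.4 and 43.1 CPM in DMSO and 31.6 and 31.8 CPM in GDC0449. Its log2 fold change was close to that of Snhg1 at -0.41 (standard error 0.09, edgeR adjusted p of 1.05e-04), and the adjusted p was 0.0559 without DMSO replicate 2. Of its exonic bases 11.1% are also exonic in Mcmdc2.

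Zfas1 (ENSMUSG00000074578, chr2:167062934-167065862, plus strand) is read divergently from the 5′ end of Znfx1 and hosts Snord12. Its levels were 18.1 and 19.97 CPM in DMSO and 16.3 and 14.1 CPM in GDC0449, which did not overlap but lay close. The log2 fold change was -0.32 (standard error 0.11, edgeR adjusted p of 0.0233). That p rose to 0.132 without DMSO replicate 1, 0.247 without DMSO replicate 2 and 0.268 without GDC0449 replicate 2, and was 0.140 with DESeq2. Of its exonic bases 9.25% are shared with Znfx1 or Gm27494, and the strand setting of the counting is not given in the sources used here.

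Snhg5 and Epb41l4aos did not pass the test. Snhg5 (ENSMUSG00000097195, chr9:88521050-88522929, minus strand), the host of the Snord50 pair, was at 52.1 and 53.5 CPM in DMSO and 47.0 and 45.8 CPM in GDC0449. The separation was complete but small, with a log2 fold change of -0.19 (standard error 0.08, edgeR adjusted p of 0.0584). With the replicate number as a block the adjusted p was 0.00918. Epb41l4aos (ENSMUSG00000087590, chr18:33794892-33795986, plus strand) is named as an opposite-strand gene of Epb41l4a, and its 430 exonic bases are shared with no other annotated gene. It had the fewest counts of the 8 in all, at 157 and 125 in DMSO and 152 and 137 in GDC0449. These were 7.98 and 7.75 CPM against 7.20 and 6.48 CPM, and the log2 fold change was -0.20 (standard error 0.16, edgeR adjusted p of 0.347). A difference of the size seen in Snhg1 lies within about 2 standard errors of that value, so it could not be resolved at this depth.

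Snhg3 (ENSMUSG00000085241, chr4:132348014-132353686, minus strand), the host of Snora73a and Snora73b, had 0 counts in every library and was not tested by counts. A count of 0 allows up to 3 reads per library for counting error alone. That bound does not cover reads of Snhg3 that the counting did not assign to it. The FPKM of the same gene were 10.2 and 6.16 in DMSO and 9.39 and 7.70 in GDC0449, so both treated values lay inside the DMSO range. Of the 986 exonic bases of Snhg3, 83.3% are also exonic in Gm17300 or Rcc1, and Rcc1 alone covers 13.7% of the 986. Only 135 bases are shared with no other annotated gene. Such a mismatch was not limited to this gene, since 546 genes of the table have 0 counts in all libraries and an FPKM of at least 1 in all. Its cause was not tested.

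FPKM are the deposited values scaled to gene length and depth. The tool and the gene lengths behind them are not given, so the order of genes below holds for these values only. Counts per exonic base order some genes otherwise. In DMSO replicate 1 Snhg1 had 3442 counts on 2969 exonic bases and Gas5 4189 on 3760. Epb41l4aos had 157 on 430 and Snhg8 212 on 853. Mean FPKM in DMSO ran from Gas5 at 184 ± 5.40 through Snhg1 at 124 ± 8.23, Snhg5 at 36.2 ± 0.823, Snhg6 at 29.0 ± 1.42, Snhg12 at 24.2 ± 0.678, Zfas1 at 22.5 ± 0.646, Snhg8 at 14.2 ± 1.73 and Epb41l4aos at 12.2 ± 0.729 to Snhg3 at 8.17 ± 2.84 (SD, n = 2). Neighbours in this order did not overlap in DMSO, although Snhg12 and Zfas1 (lowest 23.7 against highest 23.0) and Snhg8 and Epb41l4aos (lowest 13.0 against highest 12.7) came close. In GDC0449 the order of the upper 4 was the same, at 142, 90.4, 31.5 and 23.2 FPKM. Below them Zfas1 at 17.3 now stood above Snhg12 at 11.9, and Epb41l4aos at 10.5 above Snhg8 at 9.24. The libraries of Snhg8 and Snhg3 (mean 8.55) overlapped there.

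A limma fit of log2(FPKM + 1), which understates the change of low genes, covered 13084 genes and all 9 members. It gave 6 members lower at an adjusted p below 0.05, the 6 named above, and 0 higher, beside 7.77% of all genes lower and 7.56% higher. Snhg12 alone was called lower, where 2.68% of all genes were and 3.97% were called higher. In 8 of 9 members the FPKM groups did not overlap, against 33.8% of all genes lower and not overlapping. For Snhg12 the FPKM were 24.7 and 23.7 in DMSO and 12.8 and 10.9 in GDC0449, with a log2 difference of -0.98 and a limma adjusted p of 0.00391. For Gas5 they were 180 and 188 against 140 and 143, a difference of -0.37 with a limma adjusted p of 0.0160. The DMSO replicates of Gas5 thus stood in the opposite order by FPKM and by CPM. Snhg3 differed by 0.09 with a limma adjusted p of 0.817.

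**Figure D2:**
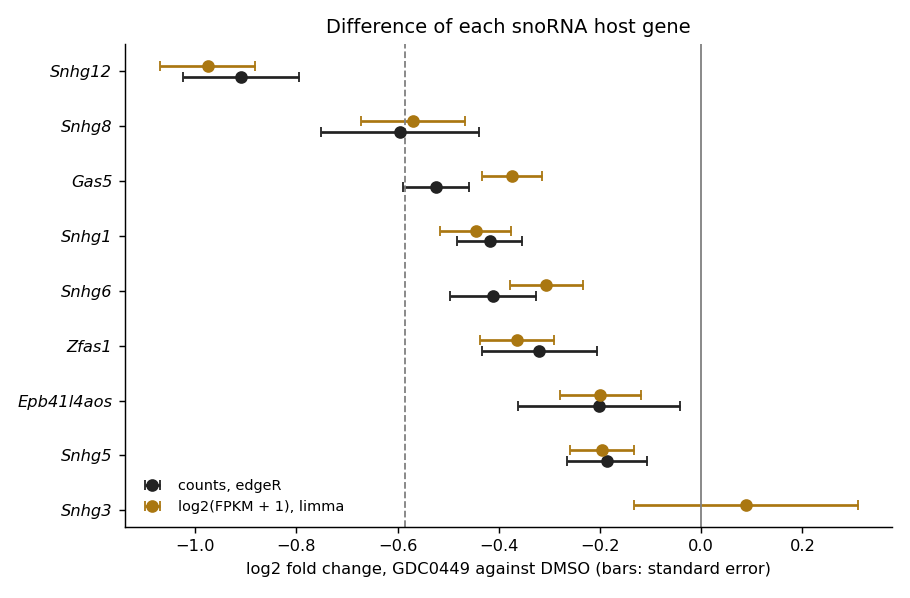
Log2 fold change of each host gene in GDC0449 against DMSO with its standard error, from counts (black, edgeR) and from log2(FPKM + 1) (ochre, limma); the dashed line marks 1.5-fold lower. Both scales give values below 0 for 8 genes, from -0.91 (counts) and -0.98 (FPKM) for Snhg12 to -0.19 and -0.20 for Snhg5, while Snhg3 has an FPKM value only, at 0.09.

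The snoRNAs within the hosts are shown next because they are the products for which these genes are known. The box C/D examples from Gas5 and the box H/ACA example from Snhg8 are GENCODE M21 transcripts on GRCm38, 5′ to 3′, and Gm25789 and Gm22357 are the lowest and the highest of Gas5 by FPKM. Capitals mark the C box TGATGA within the first 20 bases and the D box CTGA within the last 20, or the ACA near the 3′ end.
Gm22357 (Gas5, chr1:161036057-161036139, plus strand): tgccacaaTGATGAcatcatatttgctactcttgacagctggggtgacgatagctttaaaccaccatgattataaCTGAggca
Snord47 (Gas5, chr1:161038082-161038158, plus strand): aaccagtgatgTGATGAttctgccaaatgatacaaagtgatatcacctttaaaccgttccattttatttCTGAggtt
Gm25789 (Gas5, chr1:161038308-161038383, plus strand): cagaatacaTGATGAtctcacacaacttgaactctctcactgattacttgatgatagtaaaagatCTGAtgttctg
Snora24 (Snhg8, chr3:123507937-123508066, minus strand): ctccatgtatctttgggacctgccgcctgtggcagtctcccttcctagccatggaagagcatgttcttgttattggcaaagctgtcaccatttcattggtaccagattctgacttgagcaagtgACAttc

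The members span 31 annotated snoRNA loci: 9 in Gas5, 8 in Snhg1, 4 in Snhg12, 3 in Zfas1, 2 each in Snhg3 and Snhg5, and 1 each in Snhg6, Snhg8 and Epb41l4aos. Both boxes, with exactly these letters, were found in 19 of the 30 loci outside Epb41l4aos, and the ACA alone in 5. Over the 1472 annotated mouse snoRNA genes outside chromosome 18, where Epb41l4aos lies, the shares were 20.9% and 43.8%. Of the 31 loci, 27 lie wholly within an annotated exon of their host. Of the isoforms of Gas5, 20 of 25 are annotated as retaining an intron, and of those of Snhg1, 14 of 18. In 28 loci the count was 0 in every library, so only FPKM describe them. How the libraries were size selected is not given in the sources used here, and reads of a mature snoRNA and of a host RNA that retains it cannot be told apart.

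By FPKM the snoRNA loci were mostly lower in GDC0449 too. The group mean was lower in 27 of 31 loci, and the groups did not overlap in 22 with lower and in 2 with higher values in GDC0449, where 33.8% of all genes in that fit were lower without overlap. At a limma adjusted p below 0.05, 11 were lower and 1 higher, beside 7.77% and 7.56% of all genes. With the fold rule 2 were lower (Gm25789 in Gas5 and Gm25894 in Snhg1) and 0 higher, beside 2.68% and 3.97%. The median level in GDC0449 was 72.6% of that in DMSO, with a range from 39.6% to 143%. Because these loci share bases and reads with their hosts, they add no independent evidence on them.

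All 9 loci of Gas5, which share reads with their host, were lower without overlap, beside 33.8% of all genes in the limma fit. Its most abundant, Gm22357, had 83.4 and 75.6 FPKM in DMSO and 66.5 and 66.8 in GDC0449, a log2(FPKM + 1) difference of -0.25 with a limma adjusted p of 0.0709. Snord78 had 63.8 and 64.9 FPKM against 48.7 and 51.4, a difference of -0.36 with a limma adjusted p of 0.0219. Gm25789 had 5.12 and 5.34 FPKM against 2.87 and 3.22, a difference of -0.62 with a limma adjusted p of 0.0150. Levels along Gas5 differed over 10-fold between loci, yet each stood at 58.3% to 85.5% of its DMSO mean. In Snhg1 the levels in GDC0449 were 64.0% to 77.2% of DMSO, and 7 of 8 loci did not overlap. At the limma adjusted p alone 5 were lower, beside 7.77% of all genes in that fit. Its most abundant locus, Gm24452, had 43.2 and 39.7 FPKM in DMSO and 29.3 and 28.6 in GDC0449, with a limma adjusted p of 0.0119. In Snord22, the locus that overlapped, both replicates 1 (14.4 and 11.4 FPKM in DMSO and GDC0449) lay below both replicates 2 (23.6 and 16.4).

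**Figure D3:**
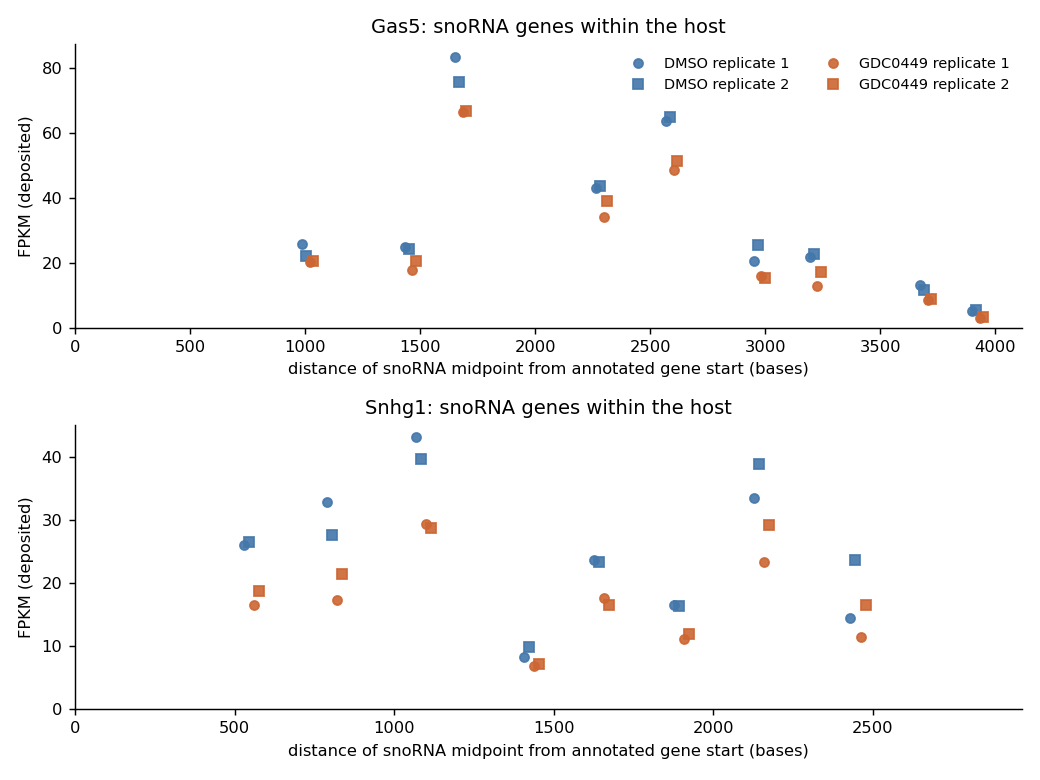
Deposited FPKM of the annotated snoRNA loci of Gas5 (top, 9 loci) and Snhg1 (bottom, 8 loci) against the distance of each locus from the annotated start of the host, in bases; blue is DMSO, orange GDC0449, circles replicate 1 and squares replicate 2, shifted sideways for legibility. The orange points lie under the blue ones at every locus of Gas5 and at all of Snhg1 except the last, Snord22, where 16.4 lies above 14.4.

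Smaller hosts were less uniform. In Snhg12 the mean FPKM in GDC0449 were 39.6% (Snora16a), 63.6% (Snora44), 86.4% (Snora61) and 111% (Snord99) of DMSO. The groups overlapped in Snora61 and Snord99. None of the 4 loci had a limma adjusted p below 0.05 (0.0614 to 0.829). Snord87 of Snhg6, which lies in no host exon, had 7.12 and 6.31 FPKM in DMSO and 4.19 and 4.76 in GDC0449, a difference of -0.49 with a limma adjusted p of 0.0338. In Zfas1, Gm25878 was lower (3.37 and 3.60 against 1.86 and 2.35 FPKM, limma adjusted p of 0.0381) and Gm23201 was higher (3.61 and 3.59 against 5.30 and 4.97 FPKM, limma adjusted p of 0.0357). The counts of Gm23201 were 24 and 16 in DMSO and 31 and 23 in GDC0449, with an edgeR adjusted p of 0.718, so its rise rests on the FPKM scale.

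The 2 loci of Snhg5 are shown because they differ by 1 base. Each is 72 bases long, and the substitution is C50A, counted from 1 at the 5′ end, with Snord50a as the reference. The differing base is in capitals.
Snord50a: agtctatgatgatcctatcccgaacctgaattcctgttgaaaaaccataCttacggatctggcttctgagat
Snord50b: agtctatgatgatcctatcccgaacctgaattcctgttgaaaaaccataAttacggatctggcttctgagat

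Snord50a had 2.51 and 2.70 FPKM in DMSO and 1.74 and 1.17 in GDC0449, and Snord50b 3.16 and 3.52 against 3.79 and 4.74. Neither difference passed, with limma adjusted p of 0.0534 and 0.188. Reads that lie wholly within a locus and do not cover that base fit both copies, so the split of such reads is uncertain. The bases beside the loci were not compared. The summed FPKM of both loci were 5.67 and 6.23 in DMSO and 5.53 and 5.91 in GDC0449, which overlap.

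Genes that start within 2000 bases of a host did not move with it in a common way. Slc3a2, the heavy subunit of several amino acid exchangers, starts 106 bases from Snhg1 on the opposite strand. It fell further than Snhg1, from 491 and 453 CPM to 171 and 175 CPM (log2 fold change -1.45, edgeR adjusted p of 1.50e-26). Rcc1, the nucleotide exchange factor of the nuclear transport GTPase Ran, starts 81 bases from Snhg3 on the same strand. It fell from 91.4 and 79.3 CPM to 67.7 and 63.9 CPM (log2 fold change -0.38, edgeR adjusted p of 4.81e-05), and the adjusted p was 0.0870 without DMSO replicate 1. Zbtb37, a zinc finger gene, starts 427 bases from Gas5 on the opposite strand and was at 46.2 and 55.3 CPM in DMSO and 49.1 and 49.4 CPM in GDC0449 (log2 fold change -0.04, edgeR adjusted p of 0.755). Znfx1, an RNA helicase gene that starts 81 bases from Zfas1 on the opposite strand, was at 22.9 and 21.6 CPM against 24.4 and 22.1 CPM (log2 fold change 0.06, edgeR adjusted p of 0.667). For Zbtb37 and Znfx1 the groups overlapped, and the sign of the difference changed when 1 library was left out (0.084 for Zbtb37 without DMSO replicate 2, -0.012 for Znfx1 without GDC0449 replicate 1).

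Other snoRNA hosts had medians nearer to 0 by counts, a difference that was not tested. Of 13 further noncoding hosts listed, 11 were matched in the table and 7 tested. Their median log2 fold change was -0.11, none was called by edgeR, and Snhg14 was the 1 that fell at the edgeR adjusted p alone (29.8 and 37.2 CPM in DMSO, 26.8 and 25.8 CPM in GDC0449, log2 fold change -0.34, edgeR adjusted p of 0.00399, and 0.203 without DMSO replicate 2). The deposited FPKM of Snhg14 were 0 and 0 in DMSO and 0 and 3.69 in GDC0449, so its fall rests on the counts. Snhg17 was at 92.7 and 95.0 CPM against 85.9 and 83.3 CPM (adjusted p of 0.0894), and its adjusted p was 0.0103 with the replicate block. Snhg15 was at 8.34 and 5.89 CPM against 4.69 and 6.34 CPM, which overlap (log2 fold change -0.39, edgeR adjusted p of 0.0926). Its FPKM did not overlap, at 9.48 and 7.31 in DMSO and 3.81 and 5.08 in GDC0449, and limma called it lower on that scale (-0.79, adjusted p of 0.0326). By edgeR it was called lower without GDC0449 replicate 2 (-0.62, adjusted p of 0.0252). Of Snhg9, Snhg11, Snhg18 and Rian no more than 3 reads were counted in all libraries together. Over the 24 tested noncoding hosts that the annotation gives besides the members, 1 was called higher and 1 lower, and the median was -0.06. At the adjusted p alone 5 of these 24 (20.8%) fell, near the share of 18.1% over all tested genes. Long noncoding genes that host no snoRNA had a median of 0.14 over 1438 tested genes, of which 149 were called higher and 67 lower. Over all tested genes 8.68% were called higher and 3.85% lower.

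The listed protein-coding hosts are mostly ribosomal protein and translation factor genes. Of 37 tested, 23 fell and 1 rose (Hspa8) at the adjusted p alone, 1 was called lower, and the median was -0.21, where 18.1% of all tested genes fell. The gene called by edgeR was Hspa9, the mitochondrial Hsp70 chaperone, at 1196 CPM in both DMSO libraries and 615 and 657 CPM in GDC0449 (log2 fold change -0.91, edgeR adjusted p of 2.01e-19). The number that fell ranged from 8 to 16 when 1 library was left out, lowest without DMSO replicate 2. Over the 232 tested protein-coding hosts of the annotation, 6 were called higher and 3 lower, and the median was -0.12. At the adjusted p alone 25 of them rose and 89 fell. Of all tested genes 8.68% were called higher and 3.85% lower, and 18.1% rose at the adjusted p alone.

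The mRNAs of proteins that assemble with snoRNAs were lower in part, where 18.1% of all tested genes fell. Of 8 genes of core proteins of the box C/D and H/ACA particles, 5 fell at the edgeR adjusted p alone and none was called by edgeR, with a median of -0.29. The limma fit of FPKM called 1 of them lower, Nop56 (-0.62, limma adjusted p of 0.0248). The 5 by edgeR were the C/D scaffold proteins Nop56 (499 and 482 CPM in DMSO, 356 and 355 CPM in GDC0449, log2 fold change -0.46, edgeR adjusted p of 3.51e-09), Nop58 (-0.43, adjusted p of 6.23e-08) and Snu13 (-0.31, adjusted p of 8.71e-05), with the H/ACA proteins Gar1 and Nhp2. The methyltransferase Fbl (-0.10, adjusted p of 0.237) and the pseudouridine synthase Dkc1 (0.02, adjusted p of 0.836) did not pass, nor did Nop10 (0.11). Of 12 assembly factors 7 fell and none was called by edgeR or by limma on FPKM, with a median of -0.26. Among those that fell were Znhit6 (-0.50), Nufip1 (-0.45) and the nucleolar chaperone Nolc1 (-0.30), while Shq1 (0.03) and Tgs1 (0.04) lay above 0 and did not pass. Leaving out DMSO replicate 1 left 2 core proteins and 3 assembly factors, and leaving out DMSO replicate 2 left 4 and 3.

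Genes of the decay route that is known to remove spliced hosts showed small differences. Of 24 nonsense-mediated decay factors, 10 fell at the adjusted p alone and 0 rose, where 18.1% of all tested genes fell and 18.1% rose. None of the 24 was called by edgeR or by limma on FPKM, and their median was -0.15. The strongest by p were Pnrc2, a decapping cofactor (172 and 176 CPM in DMSO, 117 and 123 CPM in GDC0449, log2 fold change -0.54, edgeR adjusted p of 9.81e-10), the release factor Etf1 (-0.46) and the exon junction protein Rnps1 (-0.36). The central helicase Upf1 was at -0.14 with an adjusted p of 0.0999. That count fell to between 2 and 4 when any 1 library was left out, was 5 with upper-quartile scaling and 5 with DESeq2. Of 9 tested stress mRNAs also known as targets of this decay, 6 were called lower, beside 3.85% of all tested genes, and the median was -1.51. They were Trib3 (210 and 194 CPM in DMSO, 24.0 and 23.4 CPM in GDC0449), Chac1, Ddit3, Slc7a11, Atf4 and Atf3. Gadd45a (-0.22, adjusted p of 0.109) and Tbl2 (0.05, adjusted p of 0.640) did not pass. Gadd45b was called higher at 0.763 and 0.620 CPM in DMSO and 1.71 and 1.09 CPM in GDC0449, a call that ended without DMSO replicate 1, DMSO replicate 2 or GDC0449 replicate 1.

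Regulators of the pyrimidine-tract mRNAs were mixed. Of 19 tested genes of the mTORC1 pathway and of this translation control, 3 rose and 11 fell at the adjusted p alone. Their median was -0.20. Over all tested genes 18.1% rose and 18.1% fell at the adjusted p alone, and 8.68% were called higher and 3.85% lower. Sesn2, a leucine sensor that holds mTORC1 back (167 and 156 CPM in DMSO, 46.5 and 42.7 CPM in GDC0449, log2 fold change -1.85, edgeR adjusted p of 4.03e-28), and the translation repressor Eif4ebp1 (139 and 116 against 49.9 and 49.7 CPM, -1.36, adjusted p of 1.70e-21) were called lower. Deptor, an mTOR inhibitor, was called higher (12.7 and 10.1 against 19.2 and 19.1 CPM, 0.74, adjusted p of 1.88e-06, 0.0504 without DMSO replicate 2 and 0.0728 by limma on FPKM). Larp1, which binds the capped tract, fell from 408 and 385 CPM to 294 and 265 CPM (-0.50, adjusted p of 1.51e-09). The number that fell was 5 without DMSO replicate 1 and 5 without DMSO replicate 2.

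Other well-known long noncoding RNAs, several of them scarce here, moved in both directions. Of 15 tested, 2 were called higher and 1 lower, where 8.68% and 3.85% of all tested genes were. The median of the 15 was 0.0044. Miat rose from 117 and 114 CPM to 195 and 184 CPM (log2 fold change 0.71, edgeR adjusted p of 1.73e-13). H19, an imprinted RNA, rose from 0.864 and 0.372 CPM to 4.41 and 4.21 CPM (2.73, adjusted p of 5.47e-10). Sox2ot was at 3.36 and 3.23 CPM against 2.27 and 2.03 CPM (-0.61, adjusted p of 0.0488), a call lost when any 1 library was left out. Malat1 was at -0.08 with an adjusted p of 0.341.

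**Figure D4:**
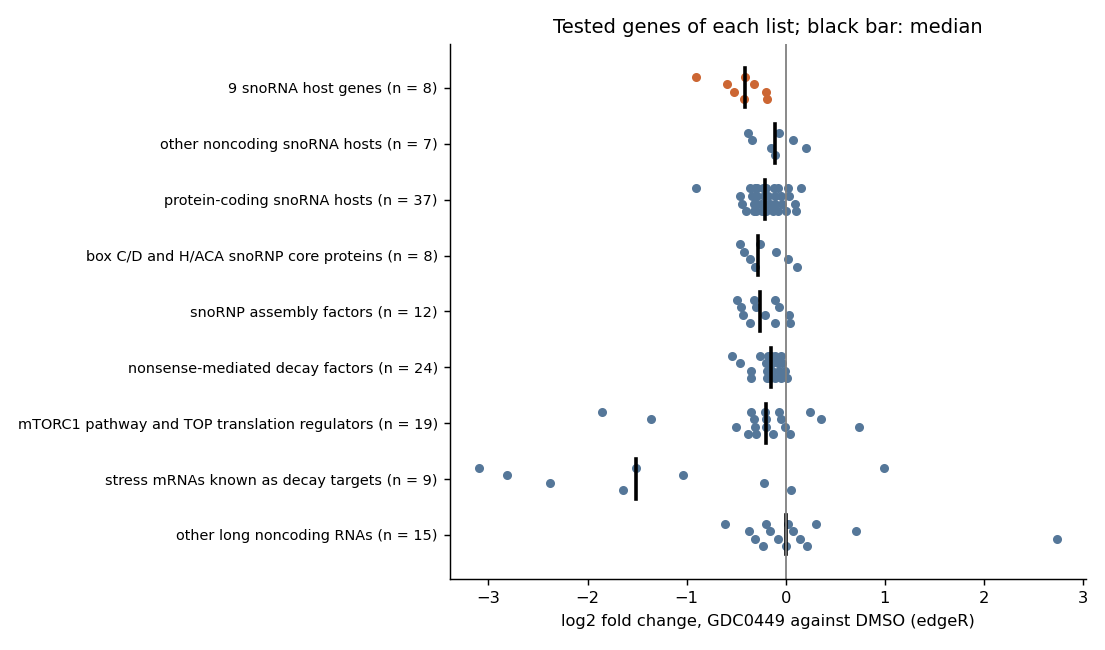
Log2 fold change (edgeR, GDC0449 against DMSO) of every tested gene in each list; points are genes, spread vertically for legibility, and black bars are medians. All 8 host genes described here (orange) lie below 0 with a median of -0.42, beside medians of -0.11 for the other noncoding hosts, -0.21 for protein-coding hosts and 0.0044 for other long noncoding RNAs, while stress decay targets reach -3.09.

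The genes whose pattern over the 4 libraries was most like that of Gas5 were sought by the Euclidean distance between centred log2 CPM values. The candidates were 7776 tested genes averaging 20 CPM or more, without those named only as a clone or predicted model. The nearest were Sox1, a transcription factor of neural progenitors (distance 0.0217), Amz2, a metalloprotease (0.0305), Wars, the tryptophanyl-tRNA synthetase (0.0473), Rrp12, a ribosome assembly factor (0.0489), and Mars, the methionyl-tRNA synthetase (0.0501). Sox1, for example, was at 72.6 and 64.7 CPM in DMSO and 48.3 and 48.6 CPM in GDC0449. By CPM it was close in shape to Gas5, with a higher first DMSO library and an even treated pair. By FPKM the DMSO replicates 1 and 2 of Sox1 stood at 10.6 and 9.50, but those of Gas5 at 180 and 188. The order of the DMSO libraries thus differed on that scale, and the ranking applies to CPM. Among host genes above that level, Snhg1 ranked 233, Snhg6 ranked 328 and Snhg5 ranked 1906 by this distance. With 4 libraries in 2 groups the measure mostly reflects the group difference and the difference between the DMSO libraries.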

How the data were processed

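Per the submitters' processing notes, the authors trimmed reads with Trim Galore, mapped them to mm10 with HISAT2, counted them per gene with HTSeq 0.11.1 and tested with DESeq2 1.26.0. The authors deposited raw counts of each gene and, in the same table, FPKM that they computed, by a tool not given in the sources used here. Annotation release and strand setting are not given there either. From the 55573 genes, 6 further entries that name no gene were left out (4.73% to 4.91% of reads ambiguous, 10.4% to 10.7% with several alignments). Reads in no gene differed by group, at 12.3% and 13.2% in DMSO and 14.3% and 14.4% in GDC0449, as did genes with reads (22685 and 22309 against 23821 and 23780) and FPKM sums (331916 and 325578 against 311586 and 313454). GENCODE M21 held 55480 identifiers.

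R 4.3.3 with edgeR 4.0.16 served to test the counts (TMM, default expression filter, quasi-likelihood test, group as the only term, 2 against 2 libraries), with Benjamini-Hochberg adjustment over all tested genes. Called means a fold over 1.5 with an adjusted p under 0.05. CPM are TMM-scaled counts computed here. FPKM of genes with at least 1 in 2 libraries were tested with limma 3.58.1 on log2(FPKM + 1). Standard errors accompany each fit. Start-site windows come from RefSeq (GRCm38.p6). On data simulated from this comparison, 69.7%, 87.9% and 95.3% of 1.5-fold, 2-fold and 3-fold changes were recovered. These were 66, 66 and 64 changed genes among 15225 genes fitted. Recovery meant an adjusted p under 0.05 in the right direction, without the fold rule. All genes were simulated with the same dispersion, so the rates do not give the power of the real calls.

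The members and lists were chosen with earlier results of these data known, so no list was tested as a set. The genes set out to be named were all members, their snoRNA loci, the nearest start within 2000 bases of each, up to 4 called genes of a list (or 3 of smallest p where none was called) and the 5 genes most like Gas5. Not all of them appear above. The called cell type markers Cnp, Tyrobp, Pdgfrb, Col3a1 and Pecam1 are among those left out, as are the values of several snoRNA loci. Genes outside that rule were named after their values were seen. Alternatives were 2 further scalings, no filter, a replicate block, robust dispersions, limma-voom, DESeq2 1.42.0, a minimum of 5 CPM in 2 libraries, each library left out in turn, and FPKM with pseudocounts of 1 and 0.1.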

Additional observations from a re-analysis of the deposited data

How the results depend on the processing

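All 8 host genes tested by counts stayed below 0 in each of 14 alternatives; the calls moved more. The 2 members called lower became 1 with upper-quartile scaling, 1 with no filter, 1 at 5 CPM and 1 on log2(FPKM + 1), and 0 to 2 when 1 library was left out. At the adjusted p alone they were 6, and 2 to 6 when 1 library was left out (3 without DMSO replicate 1, 2 without DMSO replicate 2). The 1343 genes called higher over the whole table became 746 with no filter, 799 at 5 CPM, 780 with DESeq2, 520 on log2(FPKM + 1), 661 on log2(FPKM + 0.1), 2794 at the adjusted p alone and 500 to 1221 when 1 library was left out. The 596 called lower became 366 at 5 CPM, 350 on log2(FPKM + 1), 2793 at the adjusted p alone and 351 to 605 when 1 library was left out. With 1 library left in a group, that library is assumed to vary like the other group. The sign turned for Zbtb37 (log2 fold change 0.084 without DMSO replicate 2, with -0.17 to 0.084 over the libraries left out) and for Znfx1 (-0.012 without GDC0449 replicate 1, with -0.012 to 0.13); the cause of these changes was not tested.

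The groups share replicate numbers, but same-numbered libraries deviated together only weakly (correlation 0.04 over genes), so the numbers were not taken to pair the samples. With the replicate number as a block, 7 members were lower at the adjusted p alone (Snhg5 added, at 0.00918), 2 were called lower and 0 higher, beside 1407 genes called higher and 615 lower over the whole table. Low counts limit Snhg8 and Epb41l4aos most, at 212 counts or fewer in each library.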
